A study of Mus musculus with 24 samples.

Results

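The regions described here are stretches of the mouse genome at which an m6A peak was called in most wild-type mice and in few 5xFAD mice. Peaks that the authors called separately in 12 animals were joined wherever they shared 1 base or more, and a joined region was kept when it was found in at least 3 of the 4 wild-type lists and in at most 2 of the 8 5xFAD lists. This gave 305 member regions of 13683 merged regions (2.23%). The members were thus chosen by the peak calls of these animals, and their excess in wild-type animals is a description that carries no test.

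Each of 3 groups held 4 mice, which were untreated wild-type, vehicle-treated 5xFAD or MS1262-treated 5xFAD animals. The 5xFAD strain expresses mutant human familial Alzheimer's disease genes from the neuronal Thy1 promoter, so that amyloid is deposited and glia react. The series title describes MS1262 as a G9a inhibitor that enters the brain, and G9a, the product of Ehmt2, methylates histone H3 at lysine 9. Wild-type animals were age-matched and received no vehicle, so genotype and dosing cannot be told apart against them. The age, dose and duration are not given in the sources used here. Poly(A) RNA of each hippocampus was sequenced as 1 input library, a measure of expression, and 1 library immunoprecipitated (IP) with an anti-m6A antibody, which makes 24 libraries.

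N6-methyladenosine (m6A) is an internal modification of messenger RNA, placed by a methyltransferase complex with Mettl3 and Mettl14 at its core, removed by the demethylases Fto and Alkbh5, and read by proteins such as those with a YTH domain. It is known to influence splicing, stability and translation of transcripts, and in neurons it is dense near stop codons and in 3′ untranslated regions of long transcripts. The methyltransferase favours sites that centre on GGAC or close variants. A peak in this assay is a stretch with more IP than input reads relative to the 2 libraries of that animal, and it does not locate a single methylated base.

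The bases of 3 member regions could be shown, because those of Tmed9 and Oprl1 hold an annotated gene start, and that of Rtf2 begins 1 base after one, for which a sequence was at hand. The bases are from RefSeq, build GRCm38.p6, on the + strand, and run from the first base shared by the region and the transcript. The core motif GGAC was searched on both strands and would be printed in capitals. None of the 3 stretches holds it.
Tmed9, chr13:55593135-55593164: ggctcggcagtctgcgcctgcgcaggcagg
Rtf2, chr2:172440579-172440608: ggtagggtttcgccagagaccccggaagcg
Oprl1, chr2:181715690-181715719: gaactgtactgagtggctttgcagggtgac
Among 32851 windows of the same 30 bases after annotated starts, 11.2% hold GGAC on the transcript strand and 10.2% on the other strand. Tmed9 encodes a cargo receptor of the early secretory pathway, and its region had folds of 2.79, 4.32 and 2.90 in wild-type animals 2, 3 and 4, with a peak also in vehicle animal 4 (4.35) and MS1262 animal 4 (2.60). The Rtf2 region, at the start of a replication termination factor gene, had folds of 3.03, 3.78 and 4.21 in wild-type animals 1, 3 and 4 and no peak in any 5xFAD animal. Oprl1 encodes the nociceptin receptor, and its region had folds of 1.84, 1.79 and 2.55 in wild-type animals 2, 3 and 4 and of 2.17 in vehicle animal 1 and 1.69 in MS1262 animal 4.

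Total estimated counts ranged from 20.7 to 43.2 M (M, megacounts) in input libraries and from 3.98 M in vehicle animal 4 to 48.6 M in wild-type animal 2 in IP libraries. After the peak caller limited duplicates, the ratio of IP tags to input tags was 0.666, 1.29, 0.711 and 0.697 in wild-type animals 1 to 4. The ratio was 1.196, 1.18, 1.06 and 0.329 in vehicle animals 1 to 4, and 0.862, 1.31, 1.004 and 1.21 in MS1262 animals 1 to 4. Wild-type animals 1, 3 and 4, vehicle animal 4 and MS1262 animal 1 thus had fewer IP than input tags, and the other 7 animals had at least as many IP tags. Neuronal and astrocyte markers were detected in all input libraries. Sums of neuronal, hippocampal excitatory and astrocyte markers overlapped between the groups. Inhibitory neuron markers (5 genes) summed to 484 to 599 TPM in wild-type, 366 to 447 in vehicle and 337 to 434 in MS1262 animals. The part of this difference in the member calls was not tested. The summed TPM of 5 choroid plexus markers was 42.5 to 807 in wild-type, 67.1 to 7421 in vehicle and 39.1 to 175 in MS1262 animals. None of these markers hosts a member region.

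The members were far from evenly spread over the wild-type animals. A peak was present at 274, 91, 279 and 293 of the 305 regions in wild-type animals 1 to 4. In vehicle animals 1 to 4 it was present at 50, 11, 19 and 176 regions, and in MS1262 animals 1 to 4 at 63, 22, 41 and 31. The animals with many member peaks were thus wild-type 1, 3 and 4 and vehicle 4, and wild-type animal 2 stood between these and the remaining 5xFAD animals. All merged regions numbered 3140 to 4508 per wild-type animal, 3382 to 6155 per vehicle animal and 3951 to 5676 per MS1262 animal, so that wild-type lists were not longer.

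**Figure D1:**
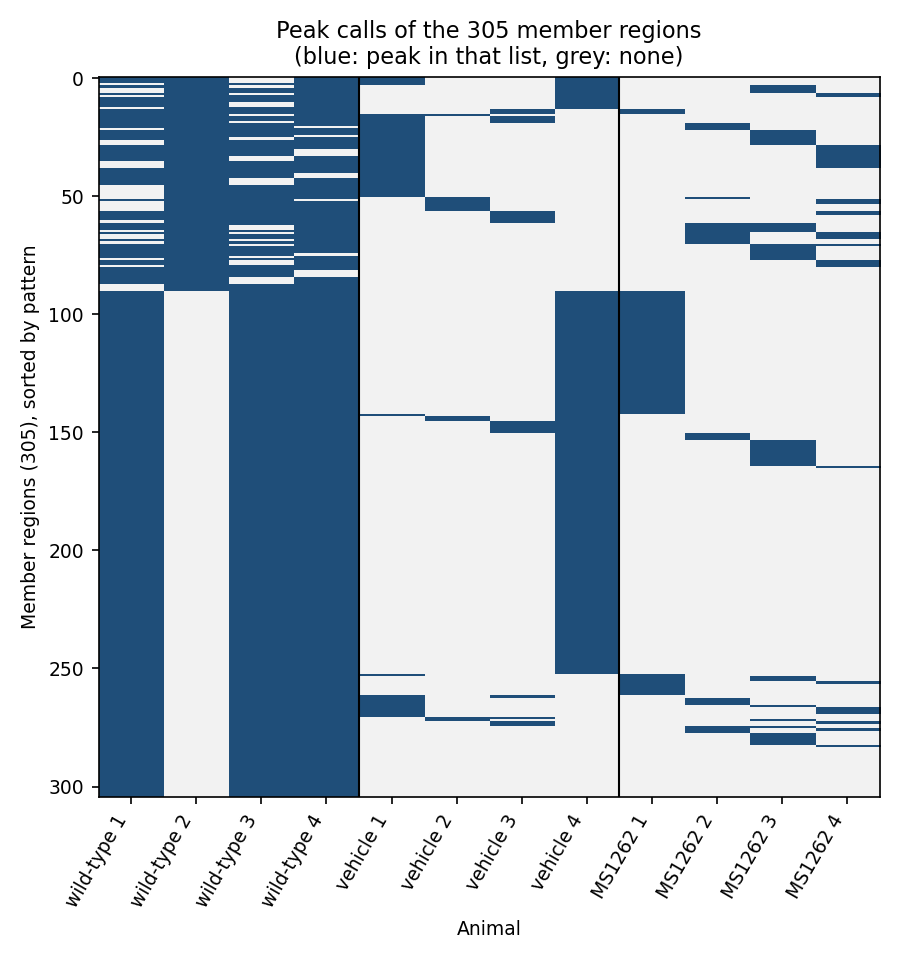
Peak calls of the 305 member regions (rows, sorted by pattern) in the 12 animals (columns), with blue for a peak in that animal's list and grey for none. Wild-type animal 2 lacks a peak at 214 of the regions, and vehicle animal 4 has one at 176.

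By the number of lists, 1 region was found in 4 wild-type lists and no 5xFAD list, 9 in 4 and 1, 12 in 4 and 2, 30 in 3 and none, 126 in 3 and 1, and 127 in 3 and 2. Of the regions, 214 (70.2%) lacked only wild-type animal 2 among the wild-type lists, 31 lacked animal 1, 26 lacked animal 3 and 12 lacked animal 4. Vehicle animal 4 held 176 of the regions (57.7%), was the only 5xFAD animal at 92, and shared 52 with MS1262 animal 1 alone. In all, 165 regions (54.1%) had peaks only in the 5 animals with fewer IP than input tags, and the other 140 had a peak in at least 1 of the remaining 7. The part of the tag ratio in the member calls was not tested, since only wild-type animal 2 among the wild-type animals had more IP than input tags and the rule cannot be applied within that set.

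The number of members changed when single animals were left out, in a direction that the setting itself largely fixed. When a wild-type animal was left out and all 3 others were required, 53 regions were kept without animal 1, 49 without animal 3 and 35 without animal 4, against 236 without animal 2. These counts mainly restate how many members lacked each wild-type list. Leaving out single 5xFAD animals kept 334 to 381. The limit on 5xFAD lists was not lowered for the animals left out, so it became looser and the count could hardly fall. Leaving out vehicle animal 4 and MS1262 animal 1 together kept 409 regions, of which 304 overlapped members. Applied with vehicle in the place of wild-type, the same rule kept 180 regions (1.32%), and with MS1262 in that place 509 (3.72%), so that the wild-type count lay between those of the other groups.

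**Figure D2:**
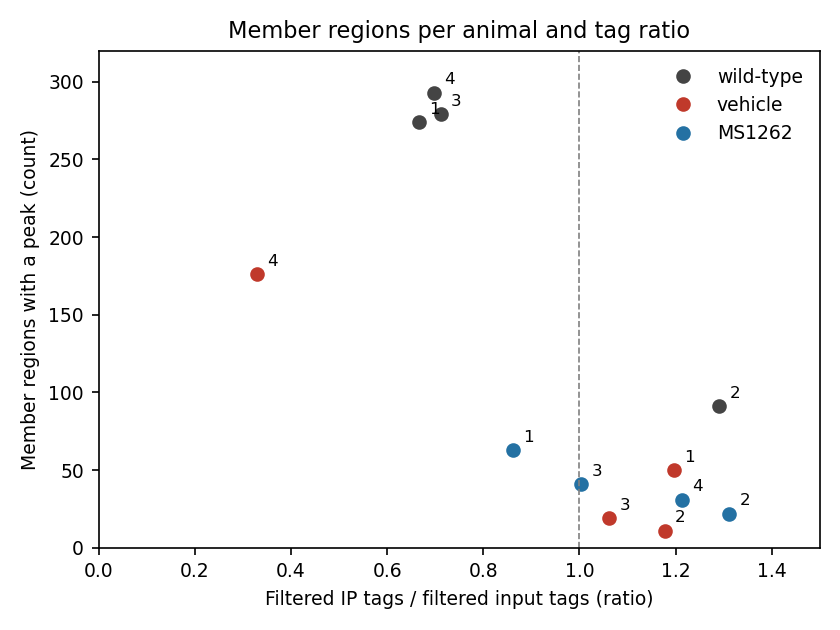
Number of member regions with a peak in each animal (y axis, count) against the ratio of IP tags to input tags after duplicate filtering (x axis), with animal numbers beside the points and a dashed line at equal tags. Wild-type animals 1, 3 and 4, at ratios of 0.666 to 0.711, hold 274 to 293 members, and wild-type animal 2, at 1.29, holds 91.

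Member peaks were modest in height. The median fold enrichment of members, as the authors' caller gave it, was 1.60, 1.83, 1.64 and 1.56 in wild-type animals 1 to 4, below the median of each whole list (2.07, 1.87, 2.28 and 2.03). In vehicle animal 4 the members' median fold was 2.27, against 2.55 for its whole list. At a q value of 0.05 or less, 256 of 274, 84 of 91, 257 of 279 and 276 of 293 member peaks were left in wild-type animals 1 to 4. At 140 of the 176 regions shared with vehicle animal 4, the fold in that animal was above every wild-type fold, with each fold scaled within its own animal.

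The 22 regions found in all 4 wild-type animals are those that did not need a missing list. The region in Dclk1, which encodes a doublecortin-like kinase of growing neurites (chr3:55461947-55462180), is the only one of these with no 5xFAD peak. Its folds were 2.60, 1.91, 3.08 and 2.25 in wild-type animals 1 to 4. No 5xFAD list reached it. Dclk1 had an input level of 51.0 to 92.0 TPM (an abundance scaled for transcript length and library size) over all animals. This whole-gene level does not give the read coverage of the region, and its part in the calls was not tested.

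Slc1a1, the neuronal glutamate transporter EAAT3, held a region (chr19:28878923-28879242) with folds of 3.00, 1.92, 2.88 and 2.79 in wild-type animals and 2.40 in vehicle animal 4. Kalrn, a guanine exchange factor of dendritic spines, held one (chr16:34171124-34171513) with folds of 2.22, 2.33, 2.88 and 2.48 and of 2.48 in MS1262 animal 3. The region in Abca3, a lipid transporter (chr17:24409320-24409642), had 2.51, 1.85, 2.14 and 2.02 in wild-type animals and 1.77 in MS1262 animal 3. In the Slc1a1 and Kalrn regions the single 5xFAD fold lay within the wild-type range, and in Abca3 it lay below it. A fold exists only where a peak was called, so the animals without a call have no height to compare.

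A further 6 regions named by rule were also called in 4 wild-type animals and in 1 5xFAD animal. They lay in the translation initiation helicase gene Eif4a1 (chr11:69668085-69668648), the vesicle trafficking gene Nbea (chr3:56004648-56005093), Ttc39b (chr4:83224277-83224769), the ephrin receptor gene Epha4 (chr1:77373084-77373689), the mitochondrial aspartate-glutamate carrier gene Slc25a12 (chr2:71274313-71275425) and 1 uncharacterised gene. Of these, Epha4 had low folds of 1.47, 1.65, 1.59 and 1.32 in wild-type animals and 1.23 in vehicle animal 3. Slc25a12 had 1.66, 1.47, 1.33 and 1.40 and, in vehicle animal 4, 1.56. In Epha4 the single 5xFAD fold lay below all wild-type folds, and in Slc25a12 it lay within their range.

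Of the regions called in 4 wild-type and 2 5xFAD animals, 5 were named. Timp2, a secreted inhibitor of matrix metalloproteinases, held a region (chr11:118302819-118303846) with folds of 1.77, 2.26, 2.87 and 1.84 in wild-type animals, 1.37 in vehicle animal 1 and 1.94 in MS1262 animal 3. In Rab5b, an early endosome GTPase gene (chr10:128681234-128681609), the wild-type folds of 2.26, 1.97, 2.03 and 2.31 lay below those of vehicle animal 3 (2.96) and MS1262 animal 4 (2.58). The other 3 regions lay in the splicing factor gene Sf3b3 (chr8:110817436-110817817), in Rtf2 (chr2:172466263-172466663) and in Kidins220, a scaffold of neurotrophin receptors (chr12:25036388-25036752). In each of those 3 at least 1 5xFAD fold lay within the wild-type range.

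**Figure D3:**
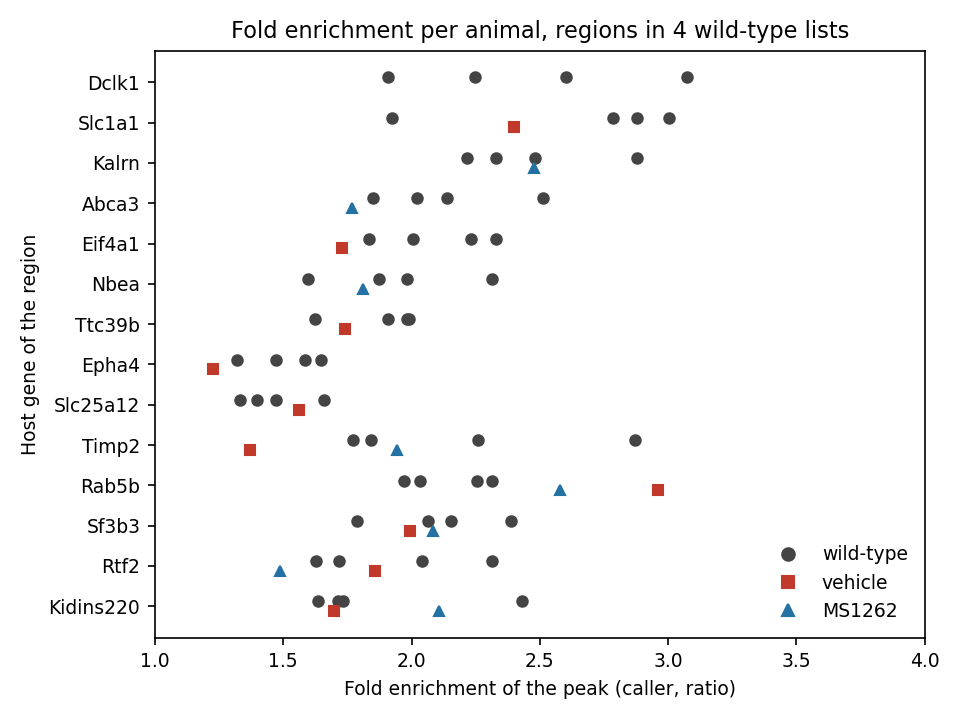
Fold enrichment of the peak (x axis, ratio given by the caller) in every animal with a call, for the 14 named host genes among the first 15 regions by rule. Circles are wild-type animals, squares vehicle and triangles MS1262; the Dclk1 region has 4 wild-type points and no other.

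At the edge of the rule, 127 members had 3 wild-type and 2 5xFAD lists, while 113 regions with 3 wild-type and 3 5xFAD lists and 26 with 4 and 3 were left out. Just inside lay regions in Copg1, a coat protein gene of Golgi vesicles (wild-type folds 4.65, 3.57 and 3.50 and MS1262 folds 3.36 and 3.64), in Nsf and in Tmed9. Just outside lay regions in Plekhb2 (wild-type 4.66, 4.12 and 3.43; 5xFAD 5.69, 3.73 and 3.45) and in the kinesin gene Kif5c (wild-type 4.52, 3.72 and 2.87; 5xFAD 2.55, 3.40 and 2.56), and 1 in a pseudogene. A further 582 regions had 2 wild-type lists and at most 2 5xFAD lists.

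Of the members, 297 lay in the body of a gene and 8 outside genes, and 275 (90.2%) lay in protein-coding genes, against 96.4% of all merged regions. Pseudogenes held 17 (5.57%, against 1.21% of all merged regions), and reads that fit such copies and their parent genes are uncertain. Of the 9 merged regions on the mitochondrial chromosome 7 were members, with mean wild-type folds of 1.23 to 1.33, all of them also called in vehicle animal 4 with folds of 1.84 to 2.51. The median length of a member was 579 bases (212 to 3343), against 400 for all merged regions and 1239 for the 806 regions found in all 12 animals. Of the members in a gene, 45.5% lay within 1 kb of either end of the gene body, against 35.9% of all merged regions.

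Members confined to the animals with fewer IP than input tags lay at other positions and in more abundant hosts than the rest. Of the members found only in animals with fewer IP than input tags, 64.2% lay within 1 kb of a gene end, against 23.0% of the other members. The former regions were also longer, with a median of 683 against 464.5 bases, and lay in shorter genes, with a median of 14690.5 against 40788 bases, and the part of these lengths was not tested. Their hosts had a median input level of 430 TPM, and 86.8% of them exceeded 100 TPM. The hosts of the other members had a median of 38.7 TPM, with 23.8% over 100 TPM. Hosts of all members had a median of 124 TPM, those of all merged regions 16.0 TPM and those of regions found in all 12 animals 23.1 TPM. Members called in all 4 wild-type animals were hosted at a median of 38.6 TPM with none over 100 TPM.

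**Figure D4:**
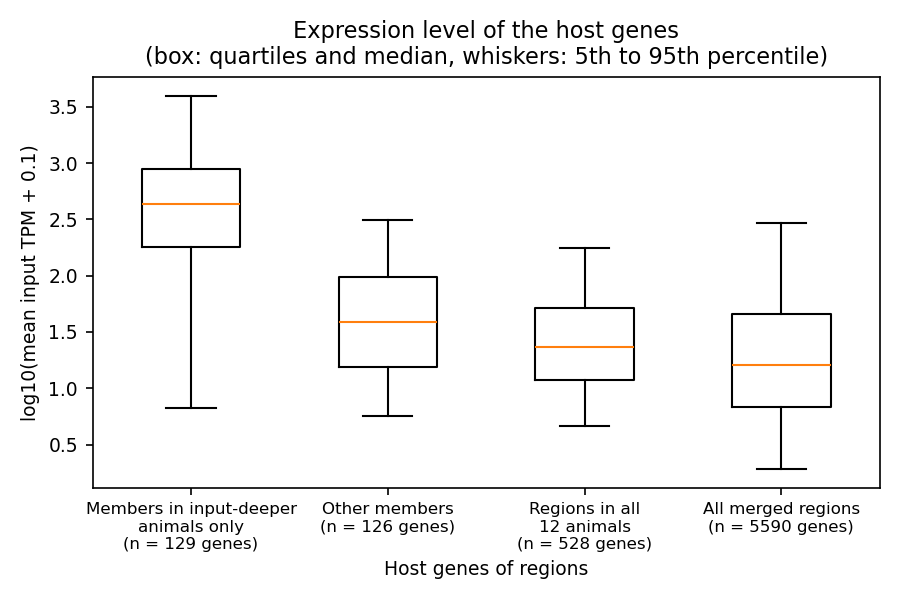
Input expression of host genes, as log10 of the mean TPM over 12 animals plus 0.1 (y axis), for members found only in the 5 animals with fewer IP than input tags, other members, regions found in all 12 animals and all merged regions; a gene with members of both kinds counts in both. Boxes give quartiles and median and whiskers the 5th to 95th percentile; medians are 430, 38.7, 23.1 and 16.0 TPM.

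The 297 regions in genes had 242 host genes, of which 200 hosted 1 member, 30 hosted 2 and 12 hosted 3 or more. Nsf, the ATPase that takes apart SNARE complexes after vesicle fusion, hosted 4. Hosts of 3 included Atp6v1a, Chn1, Eno1, Got1, Gstm1, Kif5c, Pkm, Slc1a3, Snap47 and Sparcl1. Several peaks in 1 gene share that gene's reads and are not independent. Of the hosts, 77 (31.8%) also held a region found in at least 6 of the 8 5xFAD animals. Among all genes with a region the share was 30.3%. Member hosts held a median of 4 regions, against 2 for all genes with a region, so these shares are of unlike sets.

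Genes of glycolysis, the breakdown of glucose to pyruvate, hosted 17 of the regions. Of 17 such genes 10 hosted a member, against 236 of 13000 genes with a mean input level of at least 1 TPM (1.82%). Only 5427 of those 13000 genes held any merged region, against 16 of the 17. Of 757 hosts of any region over 100 TPM, 128 hosted a member. The hosts were Pfkp, Aldoc, Tpi1, Gapdh, Pgk1, Eno1, Eno2, Pkm, Ldha and Ldhb, which range from a phosphofructokinase to lactate dehydrogenase subunits. All 17 regions lacked a peak in wild-type animal 2, all 17 had one in vehicle animal 4, and 15 were confined to the 5 animals with fewer IP than input tags. The list's median input level was 337 TPM, and the part of expression level in its share of hosts was not tested. The same shares stand beside the lists that follow, none of which was tested either.

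Gapdh (chr6:125162034-125163591) had folds of 3.12, 2.91 and 3.06 in wild-type animals 1, 3 and 4, 5.14 in vehicle animal 4 and 2.28 in MS1262 animal 1. The input level of Gapdh was 1934 to 2822 TPM over the 12 animals. In Eno1, which encodes an enolase, the 3 regions had wild-type folds of 2.03, 1.93 and 2.02 (chr4:150247304-150248123), of 1.32, 1.24 and 1.19 (chr4:150248365-150248746) and of 3.68, 1.31 and 1.29 (chr4:150243869-150244530). All 3 were called in vehicle animal 4, with folds of 3.96, 2.13 and 5.12, and in no other 5xFAD animal.

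The malate-aspartate shuttle, which carries reducing equivalents into mitochondria, hosted members in 4 of 7 genes: Mdh1, Got1, Got2 and Slc25a12. The vacuolar proton pump hosted them in 5 of 16 genes and the calmodulin and 14-3-3 genes in 4 of 9, among them Calm2. Of the 7 pump regions 5, and of the 6 calmodulin and 14-3-3 regions all 6, were called in vehicle animal 4, and none of either set in wild-type animal 2. Ribosomal protein genes, at a list median of 261 TPM, hosted members in 3 of 80 genes. All 3 of their regions were called in vehicle animal 4 and none in wild-type animal 2. All 3 were confined to the animals with fewer IP than input tags.

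Among vesicle fusion genes 3 of 11 (Snap25, Snap47 and Nsf) hosted 8 regions, all called in vehicle animal 4 and none in wild-type animal 2. Glutamate and GABA receptor genes hosted members in 3 of 17, among them Gria2 and Gabrg1. The Gabrg1 region, in a GABA receptor subunit gene (chr5:70841990-70842313), had folds of 2.44, 2.36 and 2.40 in wild-type animals 2, 3 and 4 and 2.23 in vehicle animal 1.

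Sodium and potassium channel genes showed another pattern of calls. Of 13 genes, Scn2a, Scn3a, Kcna1, Kcnab1 and Kcnq5 each hosted 1 region. Of these 5 regions 4 were called in wild-type animal 2, none in vehicle animal 4, and none was confined to the animals with fewer IP than input tags. Kcna1, a voltage-gated potassium channel gene, had no 5xFAD peak (chr6:126638988-126640156), with folds of 1.49, 1.70 and 1.49 in wild-type animals 2, 3 and 4. Its input level was low, at 1.30 to 3.96 TPM. The list's median level was 10.4 TPM, far below that of glycolysis, and no test of the difference between the lists was made.

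Among 14 amyloid and lysosome genes 4 hosted a member, among them Ncstn, a subunit of gamma-secretase, Clu, the apolipoprotein clusterin, and Ctsd, the lysosomal protease cathepsin D. The Ctsd region (chr7:142382419-142382880) had folds of 4.60, 1.64 and 3.90 in wild-type animals 1, 3 and 4 and 3.04 in vehicle animal 4. Of the marker genes, Snap25 and Map2 of 5 neuronal and Slc1a3 of 7 astrocyte markers hosted members, and none of 8 microglial or 6 oligodendrocyte markers did. Of 9 m6A writer genes and 2 erasers none, and of 12 readers only Hnrnpa2b1, hosted a member. Its region (chr6:51462802-51463416) had folds of 1.45, 1.54 and 1.68 in wild-type animals 1, 3 and 4 and 1.31 in MS1262 animal 3. The annotated microRNA hairpin Mir5121 in Rpl13a fell within a member.

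The rule counted vehicle and MS1262 animals alike, so that the members' calls can be compared between these groups. It removed any region called in 3 or more 5xFAD animals, so this comparison cannot show regions called in most MS1262 animals. Members with a peak numbered 39.25 ± 17.6 per MS1262 animal and 64.0 ± 76.5 per vehicle animal (SD, n = 4 each). The difference of -24.75 regions was smaller than the spread between vehicle animals (exact permutation test over 70 assignments, two-sided p = 0.83, where the smallest possible p is 0.0286). Over the same 305 regions it turned to 12.6 regions more in MS1262 animals without vehicle animal 4 (exact permutation p = 0.40) and to 4.67 more without MS1262 animal 1 as well (exact permutation p = 0.70). When the rule was applied again to the animals left, the differences were 27.8 (374 regions, exact permutation p = 0.229) and 24.3 (409 regions, exact permutation p = 0.40).

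Gene-level m6A enrichment, the log2 IP minus log2 input CPM (counts scaled to library size) of a gene, uses the whole transcript rather than the peak. Over the 238 host genes tested, its median was 0.22, 0.07, 0.33 and 0.33 in wild-type animals 1 to 4. It was 0.10, 0.09, 0.07 and -0.22 in vehicle animals 1 to 4 and -0.01, 0.09, 0.09 and 0.13 in MS1262 animals 1 to 4. Wild-type animals 1, 3 and 4 lay above all 8 5xFAD animals, and wild-type animal 2 lay within their range. The rule chose these hosts by calls in this contrast, so the medians are a description only.

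For the 21 hosts of regions called in all 4 wild-type animals the medians were 0.76, 0.52, 0.83 and 0.76 in wild-type animals. Vehicle animals had 0.48, 0.40, 0.49 and 0.27, and MS1262 animals 0.25, 0.47, 0.51 and 0.45. Wild-type animals lay above all vehicle and MS1262 animals here, though wild-type animal 2 (0.520) and MS1262 animal 3 (0.513) were close. The rule chose these hosts by calls in this contrast, so their separation is a description only. Hosts of any region had medians of 0.117 to 0.208 in wild-type animals. Their medians were 0.145 to 0.195 in vehicle and 0.123 to 0.218 in MS1262 animals, so that wild-type animals were not set apart there. The 112 hosts with members confined to animals with fewer IP than input tags had medians of -0.31 to 0.06 over the 12 animals. Of these genes 63.4% had a mean below 0, against 35.2% of hosts of any region and 50.7% of all genes tested. IP and input libraries of the same animals gave both measures, so this is no independent support of the calls.

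**Figure D5:**
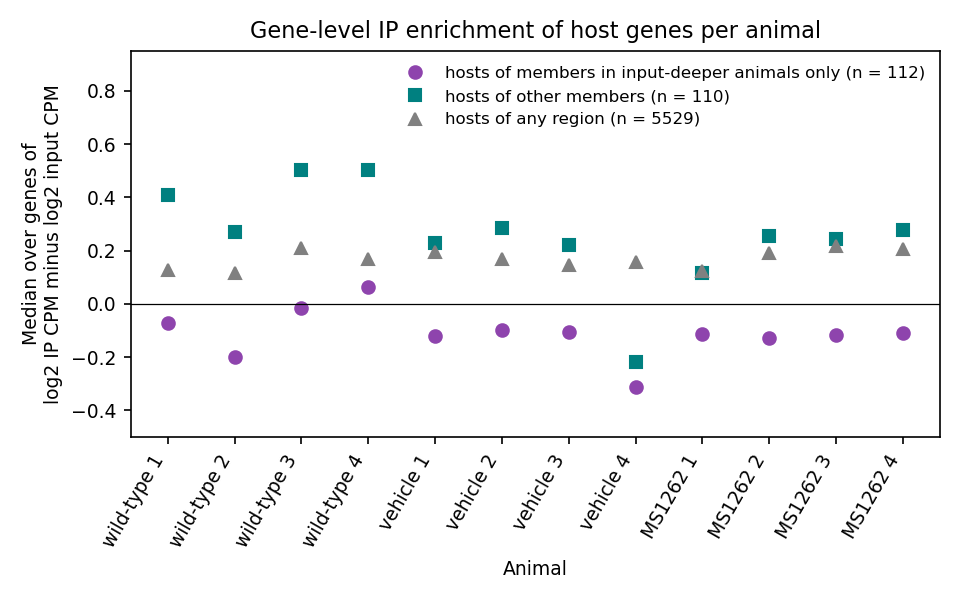
Median over host genes of log2 IP CPM minus log2 input CPM (y axis) in each of the 12 animals, for hosts of members confined to the 5 animals with fewer IP than input tags (112 genes), hosts of other members (110 genes) and hosts of any region (5529 genes). Hosts of other members lie at 0.41, 0.27, 0.50 and 0.50 in wild-type and at -0.22 to 0.28 in 5xFAD animals.

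Between MS1262 and vehicle animals, no host gene changed in m6A enrichment by edgeR's quasi-likelihood test with Benjamini-Hochberg adjustment (0 of 238 hosts; percent called over all 18300 genes, 0). At an unadjusted p below 0.05 there were 3 hosts and 434 genes, and DESeq2 called no host. The hosts' median log2 change was 0.04, against 0.05 over all genes tested. With no low-count filter, 1 host passed, the pseudogene-like copy Pgk1-rs7, which had no reads in most libraries.

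Input expression of the hosts likewise gave no call between MS1262 and vehicle animals (edgeR, 0 of 237 hosts; percent called over all 17693 genes, 0). At an unadjusted p below 0.05 there were 17 hosts and 1003 genes, and DESeq2 called 1 host, again Pgk1-rs7. Dclk1 differed by 0.07 log2 (SE 0.13) in expression and 0.10 (SE 0.16) in m6A enrichment, and Kalrn by 0.05 (SE 0.13) and 0.02 (SE 0.13). Of 23 genes of the m6A machinery 22 were tested, and none was called in either measure. Those nearest were Zc3h13, a subunit of the writer complex (log2 0.23, SE 0.10, edgeR adjusted p = 0.848), and Ythdf2, a reader that promotes decay (log2 0.35, SE 0.15, adjusted p = 0.863) in expression. In m6A enrichment the reader gene Ythdc2 had a log2 difference of 0.67 (SE 0.24, edgeR adjusted p = 1.0).

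Against wild-type, the host genes are given as values only, since the rule used this contrast and the comparisons share the wild-type animals. In vehicle animals edgeR called 9 of 237 hosts in expression, where 1.57% of all genes were called. Of these, 5 were higher (1.06% of all genes) and 4 lower (0.514%). The count was 2 to 4 without vehicle animal 1, 2 or 4 or wild-type animal 1, 3 or 4. In those settings 0.596 to 1.23% of all genes were called. By limma on log2(TPM + 1.0), which called 2.56% of all genes, 2 hosts were higher and 10 lower. Under limma the median of all genes lay at -0.14. In MS1262 animals edgeR called 7 hosts, where 1.3% of all genes were called, 4 higher (0.91% of all genes) and 3 lower (0.39%). The count was 3 or 4 without any 1 of the MS1262 animals or without wild-type animal 3 or 4. In those settings 0.577 to 0.965% of all genes were called. Those higher in vehicle animals included Clu, Ctsd, the BDNF receptor gene Ntrk2 and mt-Co1, a mitochondrial subunit of cytochrome oxidase. Prune2, the membrane protein gene Serinc1 and 2 predicted genes were lower. Those higher in MS1262 animals included Acly, an enzyme of acetyl-CoA supply, Ctsd and Lars2, a mitochondrial tRNA ligase gene, and lower were Serinc1 and the same 2 predicted genes.

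Ctsd stood at 97.1, 140, 98.7 and 110 TPM in wild-type, 235, 381, 197 and 265 in vehicle and 288, 299, 220 and 256 in MS1262 animals. All 8 5xFAD animals lay above all wild-type animals, and the share of all genes separated in this way was not counted. Summed microglial markers moved the same way, from 165 to 197 TPM in wild-type to 179 to 417 in vehicle and 272 to 365 in MS1262 animals, and their part in the Ctsd level was not tested. In bulk tissue, more cells of a type and more RNA per cell cannot be told apart. The whole-gene m6A enrichment of Ctsd was 1.22 ± 0.32 log2 (SD, n = 4) in the wild-type group, 1.08 ± 0.21 in the vehicle group and 1.203 ± 0.25 in the MS1262 group, so that its region was called in fewer 5xFAD animals while the gene-level values overlapped.

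In gene-level m6A enrichment edgeR called 1 of 238 hosts against wild-type in vehicle animals, Prune2, which was lower, where 0.989% of all genes were called and 0.0273% were called lower. In MS1262 animals it called none, where 1.24% of all genes were called and 0.0219% were called lower. Without wild-type animal 1, 3 or 4 no host was called in vehicle animals. Without vehicle animal 4 there were 6, where 2.19% of all genes were called. At an unadjusted p below 0.05 there were 53 hosts and 2140 of all genes in vehicle animals, and 40 hosts and 2034 of all genes in MS1262 animals. DESeq2 called 13 hosts in MS1262 animals, and 491 of 14561 genes (3.37%). Without wild-type animal 2 edgeR called 2 hosts in MS1262 animals, where 0.973% of all genes were called. The hosts' median log2 change was -0.23 in vehicle animals, against -0.06 over all genes. It was negative in 199 of 238 hosts and in 10153 of 18300 genes. The hosts were chosen by calls in this contrast, so these values are a description only. In MS1262 animals the hosts' median was -0.14, against 0.00 over all genes.

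Prune2, a gene of neurons that encodes a protein with a BCH domain, held a region (chr19:17222966-17223865) called in wild-type animals 1, 3 and 4, with folds of 1.34, 1.53 and 1.48, and in no 5xFAD animal. Its input level was 47.7, 59.6, 35.9 and 44.2 TPM in wild-type, 23.1, 7.45, 9.42 and 7.05 in vehicle and 25.7, 22.9, 22.5 and 19.2 in MS1262 animals. The m6A enrichment of Prune2 averaged 0.61 ± 0.22 log2 (SD, n = 4) in the wild-type group, -0.34 ± 0.39 in the vehicle group and 0.09 ± 0.07 in the MS1262 group. Input level in TPM and enrichment were thus both lower in every 5xFAD animal than in every wild-type animal. Against wild-type, edgeR on counts called its expression lower in vehicle animals and not in MS1262 animals. The share of all genes separated in this way was not counted, and the rule chose the region in this contrast. The call in m6A enrichment was lost without wild-type animal 1, 3 or 4. Without the block for the animal, no gene was called. Between MS1262 and vehicle the expression of Prune2 differed by 0.35 log2 (SE 0.15, edgeR adjusted p = 0.848) and its m6A enrichment by 0.42 (SE 0.17, edgeR adjusted p = 1.0), which did not pass. The TPM levels of these groups lay further apart than this fit on counts. TPM is scaled for transcript length, and the part of that scaling was not tested.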

How the data were processed

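Hippocampal m6A IP and input libraries of 12 mice were analysed from the deposited files. Per the file headers, the authors called peaks for each animal with MACS2 2.1.2 on its IP against its own input (q cutoff 0.5, genome size 1e8, extension of 200 bases, no shifting model, subpeak summits, duplicates limited automatically, larger library scaled to the smaller). Each deposited peak carries a pileup signal, −log10 p and q values and a fold enrichment ratio, as the authors' caller gave them. The estimated counts and TPM per gene were deposited by the authors. The submitters' processing notes also name STAR 2.7.6a, Salmon 1.4.0, Trimmomatic 0.32, SAMtools 1.10 and bcl2fastq 2.17.1.14, and give the assembly as GRCm38, or mm10. Reads were not tagged by molecule, so amplified copies count more than once.

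Peaks with equal coordinates were collapsed and all lists were merged. The host of a region is the gene of RefSeq GRCm38.p6 with the largest overlap of its gene body. Exon overlap had been planned, but no exon annotation was used here, so exon, intron and UTR positions are not given. Strand was known for 73.4% of members in genes, so positions were measured to either gene end.

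Estimated counts (8.62% not whole) were rounded and tested in R 4.3.3 by the quasi-likelihood method of edgeR 4.0.16 (TMM normalisation, filter on a minimum count of 10, 9 residual degrees of freedom, two-sided, Benjamini-Hochberg adjusted p below 0.05). Expression used the 12 input libraries. m6A enrichment used all 24, with each animal as its own block and a term for IP by group. DESeq2 1.42.0 and limma 3.58.1 (log2 of TPM plus 1.0 or 0.1) were alternatives. Fits were tested on simulated data.

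Animals are separate mice per the labels. Same-numbered animals of different groups did not vary together (correlations of -0.093 to 0.054), whereas input correlated best with the IP of its own animal in 12 of 12. The members, gene lists and tests were chosen with earlier results of these data known. Regions were named by wild-type lists, then fewest 5xFAD lists, then mean wild-type fold (15 regions), with 3 on either side of the edge of the rule and up to 4 machinery genes with the smallest p. Predicted genes and regions outside genes were counted and not named. The metabolic, synaptic, channel and amyloid lists, and other genes named, were chosen after their values were seen. Some genes that met these rules are not reported here.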

Additional observations from a re-analysis of the deposited data

Results flagged for a closer look

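In 4 of 23 groups of 4 values checked, 1 animal lay far from the other 3 of its group. The groups share animals, and the rule chose the members by the calls behind many of these values. No share expected by chance can thus be set beside this count. Wild-type animal 2 had a peak at 91 members, against 274 to 293 in the other wild-type animals, and its ratio of filtered IP to input tags was 1.29, against 0.666 to 0.711. Vehicle animal 4 had a ratio of 0.329, against 1.06 to 1.196 in the other vehicle animals. In the Kidins220 region wild-type animal 3 had a fold of 2.43, against 1.63 to 1.73 in the other wild-type animals.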

How the results depend on the processing

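The 305 members became 302 with an overlap of 100 bases, 304 with gaps of up to 100 bases bridged and 279 at q of 0.05 or less. They became 152 at a fold of 2 or more (64 overlapping the original members), 166 with at most 1 5xFAD list, 22 when 4 wild-type lists were required, and 35 to 381 without single animals. With a fold of 1.5 or more, chosen after seeing the data, they were 214, and without both 5xFAD animals with fewer IP than input tags, also chosen then, 409. With the members chosen again each time, the difference between MS1262 and vehicle animals ranged from -43.7 to 27.8 without single animals (exact permutation p from 0.229 to 1.0) and was 24.3 without those 2 animals. With the 305 members held fixed, chosen after seeing the data, it ranged from -42.4 to 12.6 without single animals and was 4.67 without those 2.

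For expression, DESeq2 called 1 host between MS1262 and vehicle, 15 in vehicle animals against wild-type (3.24% of all genes) and 11 in MS1262 animals (3.70%). On log2(TPM + 1.0) and log2(TPM + 0.1), limma called 12 (2 higher, 10 lower) and 13 (2 higher, 11 lower) in vehicle animals. In MS1262 animals it called 3 and 4. Of all genes, limma called 2.56% and 2.72% in vehicle animals and 1.02% and 1.09% in MS1262 animals. The replicate block left 4 hosts called in vehicle (0.757% of all genes) and 4 in MS1262 animals (0.950%) against wild-type. It left 0 between MS1262 and vehicle, and the replicate numbers do not pair the animals. Without single animals the counts were 2 to 10 in vehicle, 3 to 5 in MS1262 animals against wild-type and 0 between both 5xFAD groups. The shares over all genes were then 0.596 to 1.63% in vehicle and 0.577 to 0.965% in MS1262 animals against wild-type.

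For m6A enrichment with no filter on low counts, 1 host was called between MS1262 and vehicle, 8 in vehicle and 1 in MS1262 animals against wild-type. Of all genes, 0.132%, 1.54% and 1.58% were called, in the same order. DESeq2 called 8 in vehicle (3.50% of all genes) and 13 in MS1262 animals (3.37%). Without the block for the animal, 0 were called in vehicle animals. Without single animals the counts were 0 to 6 in vehicle, 0 to 2 in MS1262 animals against wild-type and 0 between both 5xFAD groups. The shares over all genes were then 0.177 to 2.19% in vehicle and 0.310 to 0.973% in MS1262 animals against wild-type. The cause of these moves was not tested. The IP library of vehicle animal 4 was the smallest, with 3.98 M counts and 5.48 M filtered tags.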
